A study of Mus spretus with 12 samples.

Results

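The genes described here encode proteins that coat lipid droplets and enzymes that hydrolyse the fat inside them: the perilipins Plin2, Plin4 and Plin5, the CIDE proteins Cidea, Cideb and Cidec, the lipases Pnpla2, Pnpla3 and Lipe, and G0s2, an inhibitor of Pnpla2. They were chosen by symbol, as every spot other than a control whose gene name equals 1 of these 10, out of 37074 gene names on the array. The 10 genes had 16 probes, of which 15 passed the background filter in 1 group or more and were kept. A single probe stood for 5 genes, 4 genes had 2 probes, and Lipe had 3.

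Liver RNA of male Mus spretus of the inbred strain SPRET/EiJ was measured on 12 one-colour Agilent arrays, 4 in each of 3 groups. All mice ate Teklad diet with corn oil for 60 days, from an age of 20 months, and were 22 months old at the end. The PXDDE group had p,p'-DDE, a long-lived residue formed from the insecticide DDT, in its feed at 450 mg/kg, and must of Pedro Ximenez grapes in its drinking water. That water held 85 mg/L of polyphenols and, as a 1:1 mixture of glucose and fructose, 31 g/L of sugar, so must polyphenols and sugar cannot be told apart. The DDE group ate the p,p'-DDE feed without the must, and the control group had neither. The series is titled as a study of protection by the must against liver injury from p,p'-DDE. No group received the must without p,p'-DDE. The design text gives 4 mice each for the must and control groups, but the labels do not tie an array to a mouse or say whether RNA was pooled. The p-values therefore set differences between groups against the variation among arrays of a group, and this variation may be technical.

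In hepatocytes, triglyceride is stored in droplets covered by a layer of perilipins, with Plin2 the main coat protein of the liver and Plin5 linking droplets to mitochondria in tissues that burn fat. CIDE proteins move lipid between droplets so that they fuse and grow, and Cideb also helps to load lipid onto very low density lipoproteins. Lipolysis starts with Pnpla2 (adipose triglyceride lipase), which Abhd5 activates and G0s2 blocks, goes on with Lipe (hormone-sensitive lipase) and ends with Mgll. Pnpla3, a relative of Pnpla2 that sits on droplets, is known as a target of the lipogenic factors SREBP-1 and ChREBP.

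The sequences of 5 probes are shown because the changes described below rest on what they hybridise to: Lipe and Pnpla3 were read by 2 probes each, which diverged for Lipe and moved together for Pnpla3, and the G0s2 probe spans the start of the coding sequence. They are the laboratory-mouse oligonucleotides printed on the array, and their match to Mus spretus was not checked. Coordinates are those of the scanner files, on mm9. Of the Lipe probes, A_51_P435363 belongs to the RefSeq mRNA NM_010719 at chr7:26165828-26165887 on the minus strand, and A_55_P2728901 belongs to the cDNA AK019846 at chr7:26167986-26168045 on the same strand. The Pnpla3 probes both belong to NM_054088, at chr15:84019823-84019882 for A_51_P389265 and chr15:84016440-84016499 for A_55_P2025514, on the plus strand. The G0s2 probe A_52_P681391 (NM_008059) lies at chr1:195098925-195098984 on the minus strand. Of A_55_P2728901 and the Pnpla3 probes the first 30 bases are given, and the other probes are given whole. The files do not place them in exons or introns. Capitals mark the ATG start codon in G0s2, and no other letters are marked.
Lipe A_51_P435363: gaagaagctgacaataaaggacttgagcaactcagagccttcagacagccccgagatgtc
Lipe A_55_P2728901: atcctggaaattctgctgcttccccaggca
Pnpla3 A_51_P389265: gcaaactagtggaacagcagaaggattgaa
Pnpla3 A_55_P2025514: tatccagtggctacaatgggcgacatccca
G0s2 A_52_P681391: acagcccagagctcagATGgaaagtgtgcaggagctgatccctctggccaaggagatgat

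Signals are given as log2 of the processed signal over the 75th percentile of the array, so a level of 0 equals that percentile. The percentile lay between 492 and 569.9 in control, 550.6 and 661.8 in DDE and 691.6 and 709.7 in PXDDE. Every PXDDE array thus lay above all others in it. Levels are divided by this percentile, and the part of its difference between groups in the results below was not tested. Between 50.12% and 52.01% of spots were well above background, and no spot was saturated. Calls are genes with an adjusted p under 0.05 in a limma fit over 18677 genes, each read by its brightest kept probe. Levels of different genes come from different probes and were not compared. All 10 hepatocyte markers were well above background on every array, and the mean level of the 9 with a value on all 12 arrays (Alb lacked one) lay between 7.16 and 7.18 in PXDDE, 7.22 and 7.24 in DDE and 7.19 and 7.25 in control. Single hepatocyte markers went both ways. Of the 10, 2 were higher and 2 lower in DDE against control, next to 24% and 26.3% of all genes. In PXDDE against DDE 1 was higher and 5 were lower, next to 20.2% and 29.7%. In PXDDE against control 4 were higher and 5 lower, next to 31.5% and 39.3%. Markers of other tissues also moved. The mean of 9 adrenal cortex markers lay between 1.44 and 1.52 in PXDDE, -2.58 and -2.49 in DDE and 0.82 and 0.91 in control, and 3 of them (Cyp11a1, Cyp11b1 and Mgarp) were well above background on no DDE array. That of 12 skeletal muscle markers lay between 2.84 and 2.98 in PXDDE, 3.23 and 3.43 in DDE and 4.59 and 4.65 in control. The mean of 10 exocrine pancreas markers lay between 7.28 and 7.32 in PXDDE, 4.78 and 4.92 in DDE and 5.10 and 5.15 in control. The part of tissue other than hepatocytes in the results below was not tested. In whole liver, fewer cells of a type and less RNA per cell cannot be told apart.

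In DDE against control the droplet genes split. Cidec, Pnpla2, Plin2 and Cideb rose, by 1.19 to 1.49 times, while Plin4 and Pnpla3 fell by more than 2-fold and G0s2 and the Lipe probe of AK019846 fell less. Plin5 and Cidea were not called. Of the 10 genes, 4 were called higher and 4 lower, where 50.3% of all genes tested were called, 24% higher and 26.3% lower. In 8 of the 10 the arrays of the groups did not overlap, against 46.4% of all genes. The median log2 change over the 10 genes was 0.03 and that of all genes was -0.02.

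With the must added, the median absolute log2 change over the 10 genes was 0.63 in PXDDE against DDE. It was 0.37 in DDE against control and 0.44 in PXDDE against control. These values use the AK019846 probe of Lipe and were not set against all genes. With the other kept Lipe probe the value of PXDDE against DDE would be smaller. In PXDDE against DDE, Pnpla3, Plin4 and Cideb rose and G0s2, the Lipe probe of AK019846, Cidec, Plin5, Cidea and Pnpla2 fell, which makes 3 higher, 6 lower and 1 not called (Plin2). The share of all genes called was 49.9%, with 20.2% higher and 29.7% lower. The arrays did not overlap for 9 of the 10 genes, against 44.7% of all genes. The median log2 change was -0.34 over the 10 genes, against -0.04 over all genes. In PXDDE against control 3 genes were higher (Pnpla3, Cideb, Plin2), 6 were lower (G0s2, the Lipe probe of AK019846, Plin4, Plin5, Cidea and Cidec) and Pnpla2 was not called, where 70.9% of all genes were called, 31.5% higher and 39.3% lower. Here 9 of the 10 did not overlap, against 65.2% of all genes, and the median log2 change was -0.29 against -0.06. In all 3 comparisons the median log2 change of the 10 genes takes Lipe from its AK019846 probe. The other kept Lipe probe rose by 0.46 in DDE against control, 0.49 in PXDDE against DDE and 0.95 in PXDDE against control. With that probe each of these medians would be higher, so their distance from the median of all genes depends on the choice of probe. The comparisons share their DDE or control arrays, so their values are set side by side below and are not independent of each other.

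**Figure D1:**
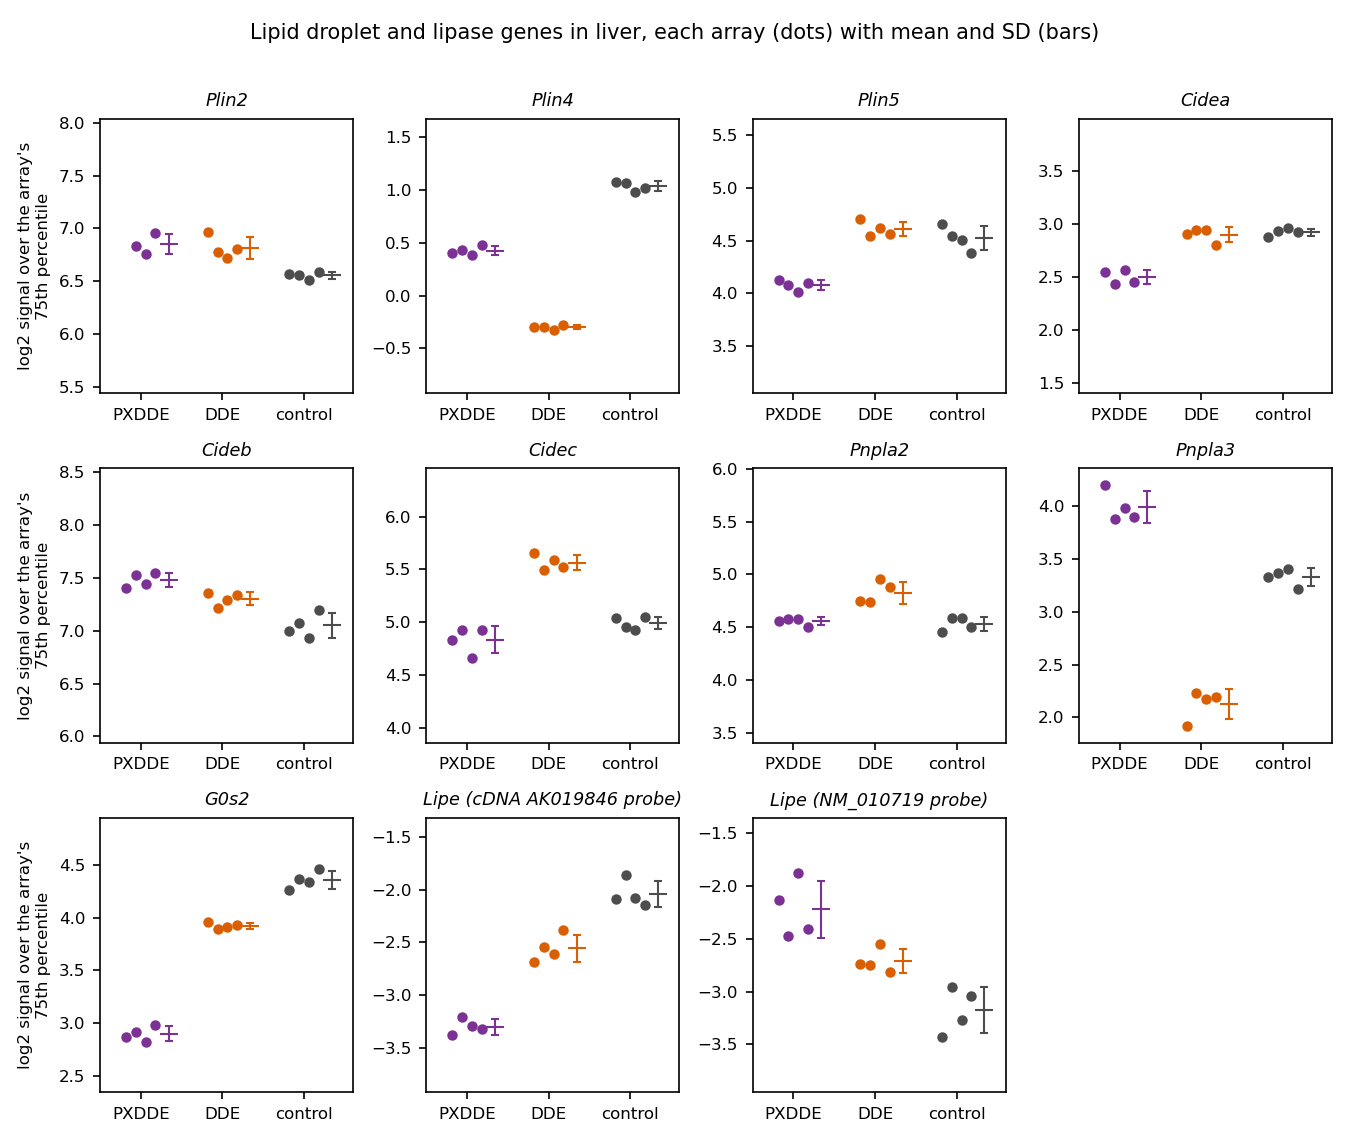
Signal of each gene on each array, as log2 over the array's 75th percentile, with PXDDE, DDE and control from left to right, dots for arrays and bars for the mean and SD (n = 4, or 3 for Plin2 in PXDDE). Each panel covers the same log2 span at its own level. Plin4 and Pnpla3 are lowest in DDE, G0s2 is lowest in PXDDE and highest in control, and the Lipe probes run in opposite directions.

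**Figure D2:**
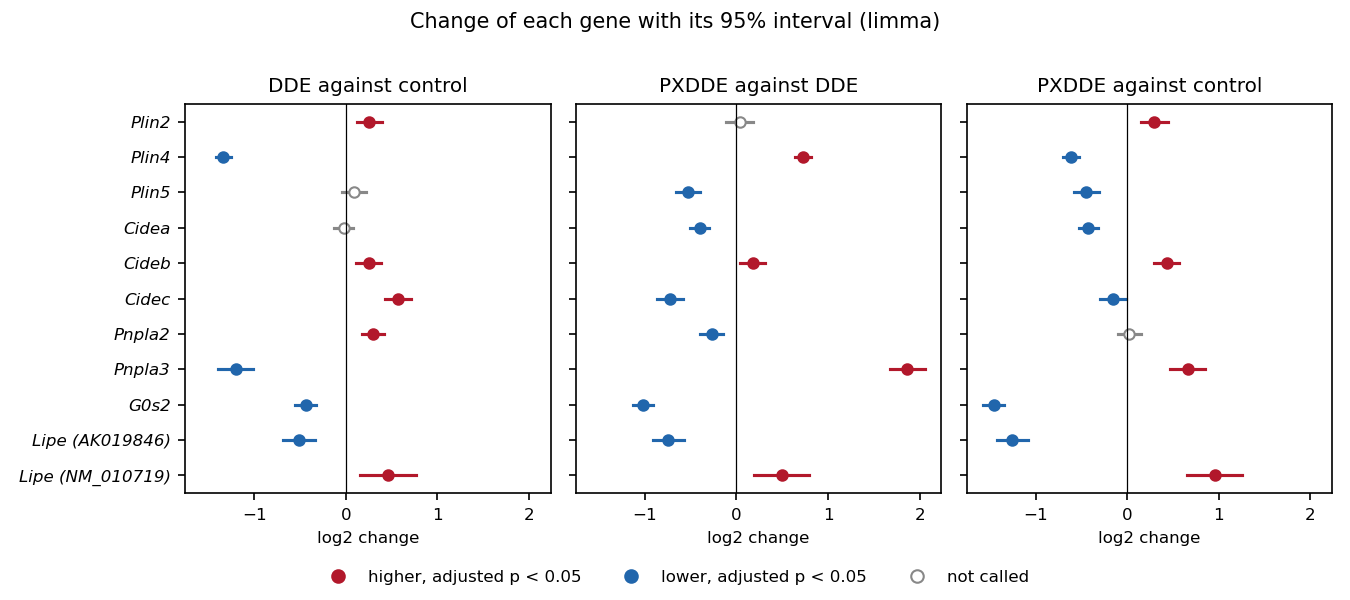
Log2 change of each gene in the 3 comparisons with its 95% interval from limma, filled where the adjusted p is under 0.05. The Pnpla3 change of 1.86 in PXDDE against DDE is the farthest from 0 in the plot, and the Lipe probes lie on opposite sides of 0 in all panels.

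Among the perilipins, Plin4 had the largest change in DDE against control. Its signal was 0.40, 0.43, 0.39 and 0.48 in PXDDE, -0.30, -0.30, -0.33 and -0.28 in DDE, and 1.08, 1.07, 0.98 and 1.02 in control. The groups were far apart, with all DDE arrays lowest and all PXDDE arrays between DDE and control. Plin4 was 2.53-fold lower in DDE than in control (95% interval 2.38 to 2.68; adjusted p = 4.36e-10, limma). With the must it was 1.65-fold higher than in DDE (1.56 to 1.75; adjusted p = 6.73e-08) and still 1.53-fold lower than in control (1.44 to 1.62; adjusted p = 8.02e-08). Plin4 is best known from white fat and muscle, and its probe lies at chr17:56240055-56240114, next to the Plin5 probe on the same strand.

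Most markers of fat moved with Plin4. Of 11 adipocyte markers, 0 were higher and 9 lower in DDE against control, where 24% of all genes were higher and 26.3% lower. In PXDDE against DDE 7 markers were higher and 1 lower, next to 20.2% and 29.7% of all genes. The mean level of the markers lay between -1.19 and -1.04 in PXDDE, -1.84 and -1.67 in DDE and -0.57 and -0.43 in control, so the groups stood in the same order as for Plin4. Adipoq, the hormone adiponectin, averaged -0.78 in PXDDE, -2.48 in DDE and -0.48 in control and was well above background on every array. Another marker, Adrb3, failed the test for signal above background on all DDE arrays. Fabp4, which carries fatty acids in fat cells and macrophages, was 1.84-fold lower in DDE than in control and was not called in PXDDE against DDE (log2 change -0.11). Plin1, the perilipin of fat cells, was called in no comparison (log2 changes 0.25 in DDE against control and 0.12 in PXDDE against DDE) and was well above background on 2 of the 4 control arrays. The part of fat tissue in the Plin4 values was not tested.

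Plin2, the main droplet coat of the liver, moved little under the scaling used here. Its brighter probe (chr4:86302847-86302906) gave 6.84, 6.76 and 6.96 in PXDDE, 6.97, 6.77, 6.72 and 6.80 in DDE, and 6.57, 6.56, 6.51 and 6.59 in control. A spot of PXDDE replicate 1 with a level of 6.43 was marked an outlier by the scanner software and left out of the fit. All DDE arrays and the other PXDDE arrays lay above all control arrays. The rise in DDE against control was 1.20-fold (95% interval 1.09 to 1.31; adjusted p = 0.00573, limma) and that in PXDDE against control 1.23-fold (1.11 to 1.36; adjusted p = 0.0024), which was not called with the left-out spot kept (log2 change 0.19, adjusted p = 0.101). Plin2 was not called in PXDDE against DDE (log2 change 0.04, interval -0.11 to 0.18).

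This last comparison of Plin2 and the size of its rise in PXDDE against control depended on the scaling. Quantile normalisation, the same after normexp background correction, and the authors' deposited values gave log2 changes of 0.32, 0.32 and 0.27 (adjusted p = 0.00077, 0.000319 and 0.00821), and put PXDDE against control at 0.74, 0.71 and 0.70. A dimmer Plin2 probe, A_66_P132059, read 2.58, 2.61, 2.80 and 2.54 in PXDDE, 2.49, 2.50, 2.43 and 2.53 in DDE and 1.79, 2.01, 2.17 and 2.30 in control. It rose by 0.42 in DDE against control (adjusted p = 0.00497 over 27097 probes, of which 47.5% were called, 23% higher and 24.5% lower) and by 0.56 in PXDDE against control (adjusted p = 0.000328), where 68.6% of probes were called, 31.3% higher and 37.3% lower. It was not called in PXDDE against DDE (0.15, adjusted p = 0.246), where 45.7% of probes were called, 18.6% higher and 27.1% lower.

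Plin5, which tethers droplets to mitochondria, was low with the must. Its signal at chr17:56251025-56251084 was 4.13, 4.08, 4.01 and 4.10 in PXDDE, 4.70, 4.54, 4.62 and 4.57 in DDE, and 4.66, 4.54, 4.50 and 4.38 in control. DDE and control overlapped, and every PXDDE array lay below both. It fell by 0.53 on the log2 scale in PXDDE against DDE (1.44-fold, 95% interval 1.32 to 1.58; adjusted p = 2.95e-05, limma) and by 0.44 in PXDDE against control (adjusted p = 4.28e-05), a call that ended with median centring (log2 change -0.07, adjusted p = 0.36). The change in DDE against control was 0.09 (interval -0.05 to 0.22; adjusted p = 0.258). The other Plin5 probe, A_51_P262757, fell by 0.52 and 0.50 with the must and gave 0.02 in DDE against control. Plin4 and Plin5 are neighbours on chromosome 17, but Plin4 fell in DDE against control where Plin5 was not called, and in PXDDE against DDE Plin4 rose while Plin5 fell.

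Cidec, the CIDE protein that fuses droplets in fat and in fatty liver, had the largest rise of the 10 in DDE against control, except with the deposited values, which gave 0.44 for Cidec and 0.50 for Cideb. Its probe at chr6:113374693-113374752 gave 4.83, 4.93, 4.66 and 4.92 in PXDDE, 5.65, 5.49, 5.59 and 5.52 in DDE, and 5.04, 4.96, 4.93 and 5.05 in control. All DDE arrays lay above all others. The rise in DDE against control was 1.49-fold (95% interval 1.35 to 1.64; adjusted p = 2.91e-05, limma), and PXDDE was 1.66-fold lower than DDE (log2 change -0.73, -0.87 to -0.59; adjusted p = 4.28e-06). PXDDE was also just under control (log2 change -0.16, interval -0.30 to -0.01, adjusted p = 0.0477), a call that was lost in 17 of 28 alternative settings and that median centring turned to 0.22 (adjusted p = 0.0187).

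Cideb, which helps to build lipoproteins in hepatocytes, rose in steps. Its signal at chr14:56372942-56373001 was 7.41, 7.53, 7.44 and 7.55 in PXDDE, 7.36, 7.22, 7.29 and 7.34 in DDE, and 6.99, 7.08, 6.93 and 7.20 in control. The groups did not overlap, with PXDDE highest and control lowest. The rise was 1.19-fold in DDE against control (adjusted p = 0.0057, limma), 1.13-fold in PXDDE against DDE (95% interval 1.03 to 1.24; adjusted p = 0.0344) and 1.35-fold in PXDDE against control (adjusted p = 7.06e-05). The middle one was not called without DDE replicate 2, DDE replicate 3, PXDDE replicate 2 or PXDDE replicate 4 (adjusted p between 0.0709 and 0.0946), or when dim probes were also tested (adjusted p = 0.0572). By quantile normalisation it was larger (log2 change 0.46). A dimmer probe, A_55_P2746861, rose by 0.31, 0.19 and 0.50 in the same 3 comparisons, and was likewise near the threshold in PXDDE against DDE (adjusted p = 0.0289 over probes).

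Cidea, which is abundant in brown fat and rises in fatty liver in mice, was lower with the must, as Plin5 was. The levels were 2.55, 2.44, 2.57 and 2.45 in PXDDE, 2.91, 2.95, 2.94 and 2.80 in DDE, and 2.88, 2.93, 2.96 and 2.92 in control. DDE and control overlapped and all PXDDE arrays were lower. It fell by 0.40 in PXDDE against DDE (1.32-fold, 95% interval 1.23 to 1.42; adjusted p = 4.28e-05, limma; by 0.26 with median centring) and by 0.42 in PXDDE against control (adjusted p = 9.33e-06), which was not called with median centring (log2 change -0.05, adjusted p = 0.411). In DDE against control the change was -0.02 (interval -0.13 to 0.08; adjusted p = 0.703), and median centring put it at 0.21 (adjusted p = 0.00545). The probe lies on chromosome 18.

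Pnpla2, the lipase that takes the initial fatty acid from triglyceride, rose in DDE. Its probe at chr7:148645928-148645987 read 4.56, 4.58, 4.58 and 4.50 in PXDDE, 4.74, 4.73, 4.95 and 4.88 in DDE, and 4.46, 4.58, 4.58 and 4.50 in control. The DDE arrays lay above all others, and PXDDE and control overlapped. DDE was 1.23-fold above control (log2 change 0.30, or 0.53 with median centring; 95% interval of the fold 1.13 to 1.34; adjusted p = 0.00115, limma) and PXDDE was 1.21-fold below DDE (1.11 to 1.31; adjusted p = 0.00203). The fall with the must was not called under quantile normalisation, quantile normalisation after normexp, median centring or the deposited values (log2 changes -0.16 to -0.12, adjusted p = 0.0555 to 0.0993). PXDDE against control gave 0.02 (interval -0.10 to 0.15).

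The partners of Pnpla2 differed among themselves. Abhd5, its coactivator, was 1.61-fold higher in DDE than in control (adjusted p = 3.7e-06, limma) and 1.42-fold lower in PXDDE than in DDE (adjusted p = 4.07e-05), and so had the directions of Pnpla2. Hilpda, which like G0s2 inhibits this lipase, was not called in DDE against control (log2 change 0.02) and was 1.87-fold lower in PXDDE than in DDE (adjusted p = 2.28e-06). Mgll, which releases the last fatty acid, was not called in DDE against control (0.06) and fell by 0.26 in PXDDE against DDE (adjusted p = 0.00288).

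G0s2, the inhibitor that binds Pnpla2 on the droplet, fell in every comparison. Its probe, shown above across the start codon, gave 2.87, 2.92, 2.82 and 2.99 in PXDDE, 3.96, 3.89, 3.91 and 3.93 in DDE, and 4.26, 4.37, 4.34 and 4.47 in control. The groups were separate, with PXDDE lowest. DDE was 1.35-fold below control (95% interval 1.25 to 1.46; adjusted p = 3.79e-05, limma), PXDDE was 2.03-fold below DDE (1.88 to 2.20; adjusted p = 4.26e-08) and PXDDE was 2.75-fold below control (2.54 to 2.97; adjusted p = 7.55e-10). Within slides the log2 change in PXDDE against DDE was -1.09 to -0.97.

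The macrophage markers went the way of G0s2, which is also made in immune cells. Of 10 Kupffer cell and macrophage markers, 9 were lower in DDE against control, 9 in PXDDE against DDE and 10 in PXDDE against control, and 0 were higher in any of them. In the same order, 26.3%, 29.7% and 39.3% of all genes were lower, and 24%, 20.2% and 31.5% higher. The mean level of the markers lay between 1.06 and 1.14 in PXDDE, 1.45 and 1.53 in DDE and 1.81 and 1.89 in control, and all were well above background on every array. The median log2 change of the list was -0.28, -0.36 and -0.69 in the 3 comparisons, where G0s2 itself changed by -0.44, -1.02 and -1.46. The part of macrophages in the G0s2 values was not tested.

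Pnpla3 had the largest change with the must among the 10 genes. The brighter probe read 4.20, 3.88, 3.99 and 3.90 in PXDDE, 1.92, 2.23, 2.18 and 2.19 in DDE, and 3.33, 3.37, 3.41 and 3.22 in control. The groups were widely separate, with DDE lowest and PXDDE above control. Pnpla3 was 2.30-fold lower in DDE than in control (95% interval 2.01 to 2.63; adjusted p = 8.45e-07, limma), 3.64-fold higher in PXDDE than in DDE (3.19 to 4.15; adjusted p = 2.35e-08) and 1.58-fold higher in PXDDE than in control (1.39 to 1.81; adjusted p = 3.21e-05), a log2 change of 0.66 that median centring put at 1.04. In the slides that held both groups the log2 change in PXDDE against DDE was 1.81 to 1.98.

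The upstream Pnpla3 probe, A_55_P2025514, gave the same order. It read 0.82, 0.94, 0.95 and 0.80 in PXDDE, -1.14, -1.47, -1.19 and -1.31 in DDE, and -0.55, -0.17, -0.24 and -0.23 in control. Its changes were -0.98 in DDE against control (adjusted p = 1.04e-05 over probes), 2.16 in PXDDE against DDE (adjusted p = 1.62e-08) and 1.18 in PXDDE against control (adjusted p = 6.38e-07). Pnpla5, a lipase of the same family, was 3.99-fold lower in DDE than in control (adjusted p = 7.98e-08) and 4.09-fold higher in PXDDE than in DDE (adjusted p = 7.23e-08), and was not called in PXDDE against control (log2 change 0.04).

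For Lipe, hormone-sensitive lipase, the probes gave opposite results. The probe of the cDNA AK019846, which was the brightest and so stands for Lipe in the counts, read -3.38, -3.20, -3.30 and -3.32 in PXDDE, -2.69, -2.54, -2.61 and -2.38 in DDE, and -2.09, -1.86, -2.08 and -2.14 in control. The probe of the RefSeq mRNA NM_010719 read -2.14, -2.47, -1.88 and -2.40 in PXDDE, -2.74, -2.75, -2.55 and -2.81 in DDE, and -3.43, -2.95, -3.27 and -3.05 in control. Both kept the groups apart without overlap, with PXDDE lowest for the cDNA probe and highest for the mRNA probe.

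The cDNA probe fell by 0.51 in DDE against control (adjusted p = 0.000243, limma), by 0.74 in PXDDE against DDE (adjusted p = 1.47e-05) and by 1.26 in PXDDE against control (adjusted p = 6.51e-08). The mRNA probe, tested over probes, rose by 0.46 (adjusted p = 0.0168), 0.49 (adjusted p = 0.0129) and 0.95 (adjusted p = 7.56e-05). With normexp background correction the rises of the mRNA probe in DDE against control and PXDDE against DDE were 0.19 and 0.21 and were not called (adjusted p = 0.0814 and 0.0517). With the mean of the probes Lipe was called in no comparison (log2 changes -0.02, -0.13 and -0.15). The remaining probe, A_51_P174133, was well above background on 0 of 12 arrays. Its mean was -6.92 in PXDDE, -6.66 in DDE and -6.42 in control, the same order as for the cDNA probe. A direction for Lipe as a gene is therefore not given, and the counts of lower genes above include its cDNA probe.

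**Figure D3:**
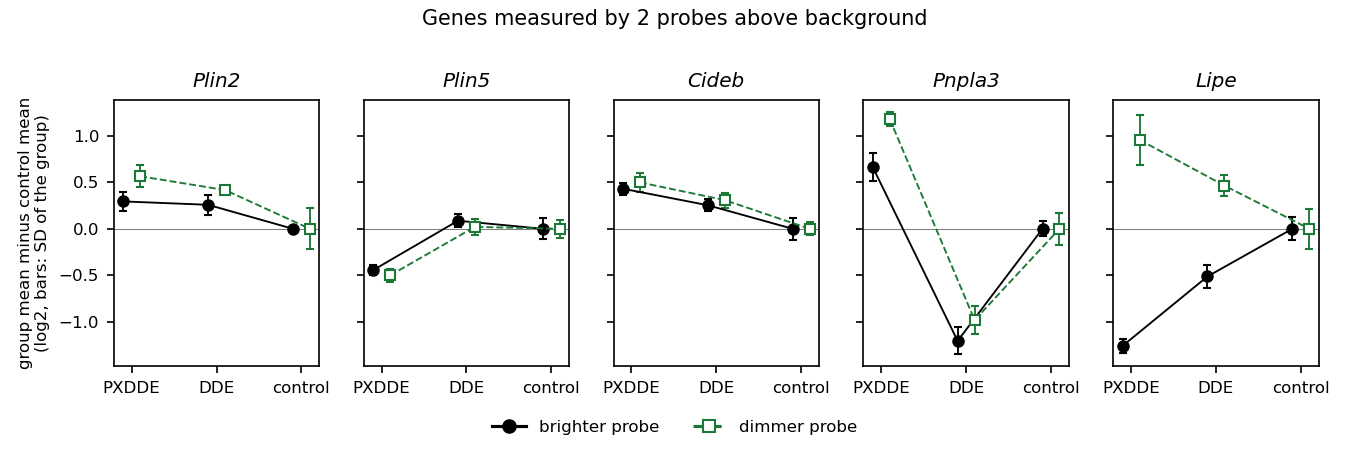
Mean of each group minus the mean of the control group (log2, vertical axis) for the 5 genes with a pair of kept probes, with the brighter probe in black, the dimmer one in green, and bars for the SD of the group. The lines run alike for Plin2, Plin5, Cideb and Pnpla3 and apart for Lipe, where PXDDE is at -1.26 with one probe and 0.95 with the other.

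Arrays lay on 5 slides, each its own scan pass, and 3 slides held arrays of both groups in each comparison. Every called gene kept its sign within all of these slides: 8 of 8 in DDE against control, 9 of 9 in PXDDE against DDE and 9 of 9 in PXDDE against control, with Plin2 measured in 2 slides where PXDDE was involved. Median centring of the arrays shifted the median change of all genes to 0.21, 0.10 and 0.32 in the 3 comparisons. Taken relative to the median gene, 10 of the 10 genes kept 1 sign over 6 scalings in PXDDE against DDE and in PXDDE against control, and 9 of 10 in DDE against control, where Cidea lay between -0.10 and 0.01. Median centring differs from the scaling used here by a constant per array, so relative to the median gene it is not a separate check. The counts include genes that were not called, such as Pnpla2 in PXDDE against control, which lay between 0.05 and 0.19. Relative to the median gene, Cidec in PXDDE against control lay between -0.11 and -0.01. The size of several called changes moved by over 1.5 times with the scaling, which for the bright genes Plin2 and Cideb happened under 4 of the other 5: over those 5, Cideb in PXDDE against control lay between 0.47 and 0.95, where 0.43 was found here. Plin4 in PXDDE against control shrank to -0.24 and G0s2 in DDE against control to -0.21 with median centring. The cDNA probe of Lipe lay between -0.40 and -0.26 in DDE against control, -0.64 and -0.34 in PXDDE against DDE and -1.03 and -0.60 in PXDDE against control under the other scalings, where -0.51, -0.74 and -1.26 were found here.

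Of 42 genes for droplet coats, droplet assembly and lipolysis other than the 10, 21 were higher, 6 lower and 15 not called in DDE against control (median log2 change 0.20), where 24% of all genes were called higher and 26.3% lower. In PXDDE against DDE 15 were higher, 9 lower and 18 not called (median 0.07), next to 20.2% and 29.7% of all genes. In PXDDE against control 22 were higher, 10 lower and 10 not called (median 0.29), next to 31.5% and 39.3%. Ces1d, a carboxylesterase that hydrolyses triglyceride in hepatocytes, was 1.94-fold higher in DDE than in control (adjusted p = 2.31e-07, limma) and was not called in PXDDE against DDE (log2 change 0.08). Hsd17b13, a droplet protein of hepatocytes, was 1.53-fold higher in DDE than in control (adjusted p = 1.41e-07) and gave 0.05 in PXDDE against DDE. Acsl5, which activates fatty acids, was not called in DDE against control (0.11) and was 1.80-fold higher in PXDDE than in DDE (adjusted p = 7.27e-06). Plin3, the perilipin found in many tissues, was 1.15-fold lower in DDE than in control (adjusted p = 0.0019) and was not called in PXDDE against DDE (log2 change -0.07).

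Genes controlled by SREBP-1 and ChREBP, the factors that drive fat synthesis after insulin and sugar, were mostly lower in DDE and mostly higher in PXDDE. Of 16 tested, 2 were higher, 9 lower and 5 not called in DDE against control, where 24% of all genes were higher and 26.3% lower. The median log2 change there was -0.31, and lay between -0.30 and -0.08 under 5 other scalings. In PXDDE against DDE 15 were higher and 1 lower (median 1.08), next to 20.2% and 29.7% of all genes. In PXDDE against control 11 were higher, 2 lower and 3 not called (median 0.70), next to 31.5% and 39.3%. Acly, which makes acetyl-CoA for fatty acid synthesis, was 1.61-fold lower in DDE than in control (adjusted p = 1.2e-06, limma) and 3.96-fold higher in PXDDE than in DDE (adjusted p = 1.17e-10). Me1, which supplies NADPH, was 1.27-fold higher in DDE than in control (adjusted p = 3.63e-05) and 2.38-fold higher in PXDDE than in DDE (adjusted p = 8.01e-10). Srebf1, the gene of SREBP-1 itself, was 1.33-fold lower in DDE than in control and 2.08-fold higher in PXDDE than in DDE (adjusted p = 7.74e-06 and 2.94e-09). The gene that fell in PXDDE against DDE was Txnip, a glucose-responsive gene (log2 change -0.42). Fasn was not tested because too many of its spots were marked as outliers. Sugar came with the must in the water, and its part was not tested. Slc2a4, the insulin-responsive glucose transporter of muscle and fat, is also in this list and was 2.80-fold lower in DDE than in control (adjusted p = 2.39e-09) and 1.72-fold higher in PXDDE than in DDE (adjusted p = 5.2e-07).

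Targets of PPARA, the fasting-activated factor that also drives Plin2, Plin5, Cidea, Cidec and G0s2 in mouse liver, numbered 15. In DDE against control 7 were higher, 2 lower and 6 not called (median log2 change 0.16), where 24% of all genes were higher and 26.3% lower. In PXDDE against DDE 0 were higher, 10 lower and 5 not called, next to 20.2% and 29.7% of all genes. The median log2 change there, -0.27, moved to between -0.23 and 0.01 under 5 other scalings. In PXDDE against control 3 were higher and 7 lower, next to 31.5% and 39.3%. There the median of -0.15 lay between -0.10 and 0.23 under the other scalings. Vnn1, a pantetheinase, was 2.21-fold higher in DDE than in control and 1.67-fold lower in PXDDE than in DDE (adjusted p = 1.18e-07 and 4.02e-06, limma). The 2 lower in DDE against control were Cyp4a14 (2.25-fold, adjusted p = 2.31e-05, limma) and Pdk4 (1.42-fold, adjusted p = 0.000147). In PXDDE against DDE Cyp4a14 was not called (log2 change 0.17) and Pdk4 was 1.70-fold lower (adjusted p = 6.66e-06). Angptl4, an inhibitor of lipoprotein lipase, was 1.28-fold higher in DDE than in control and 1.81-fold lower in PXDDE than in DDE (adjusted p = 0.000164 and 1.58e-07). Fgf21, a fasting hormone of the liver, was not called in DDE against control (log2 change 0.16) and was 1.95-fold lower in PXDDE than in DDE (adjusted p = 3.4e-06).

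**Figure D4:**
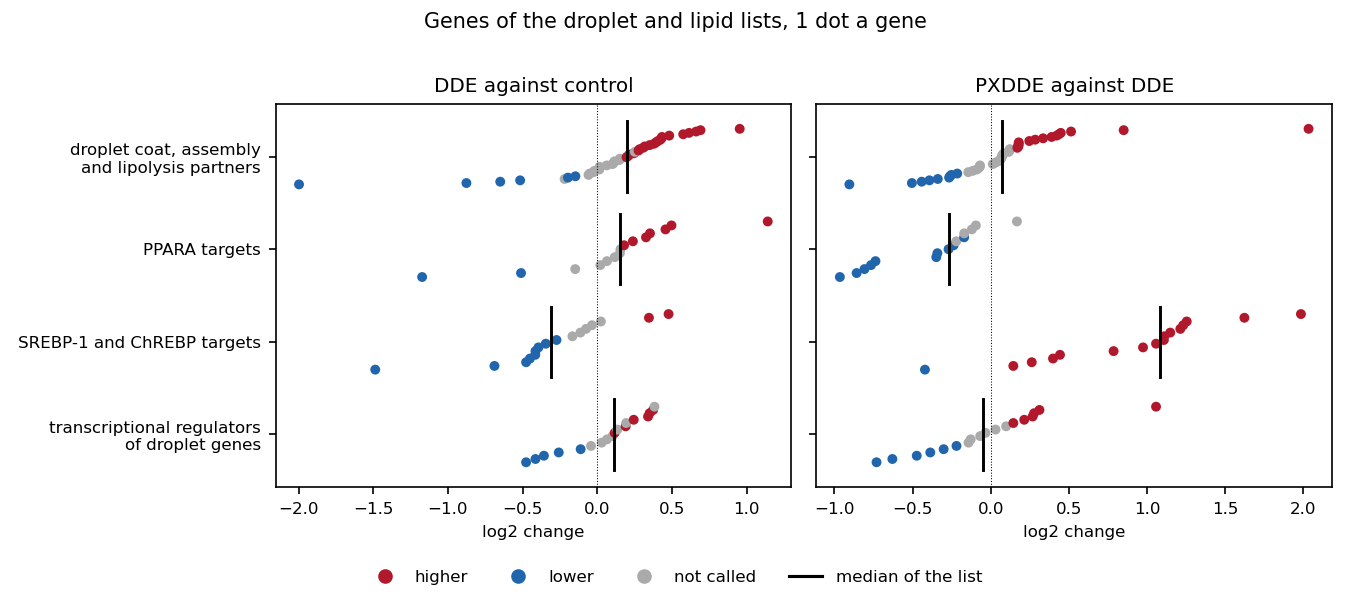
Log2 change of each gene in the 4 lists of droplet and lipid genes, with DDE against control on the left and PXDDE against DDE on the right, 1 dot a gene, coloured by the call, and a bar at the list's median. The targets of SREBP-1 and ChREBP lie mostly to the left of 0 in DDE against control (median -0.31, or -0.30 to -0.08 under 5 other scalings). In PXDDE against DDE they lie mostly to the right (median 1.08).

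Transcriptional regulators of droplet genes, a list of transcription factors and coactivators, went both ways, as did all genes tested. Srebf1 and Mlxipl are in this list and also among the targets of SREBP-1 and ChREBP above. Of 18, 6 were higher, 5 lower and 7 not called in DDE against control, where 24% of all genes were higher and 26.3% lower. In PXDDE against DDE the counts were 6, 6 and 6, next to 20.2% and 29.7% of all genes. In PXDDE against control they were 9, 6 and 3, next to 31.5% and 39.3%. Pparg, which drives Plin4, Cidea and Cidec in fat and in fatty liver, had a log2 change of 0.37 in DDE against control (adjusted p = 4.94e-05, limma) and was not called in PXDDE against DDE (log2 change -0.07). Mlxipl, the gene of ChREBP, was 1.39-fold lower in DDE than in control (adjusted p = 2.48e-05) and 1.11-fold higher in PXDDE than in DDE (adjusted p = 0.0404). Ppara itself was not called in either (0.13 and 0.10). Lpin1, a phosphatidate phosphatase and coactivator, was not called in DDE against control (-0.04) and was 1.66-fold lower in PXDDE than in DDE (adjusted p = 8.58e-08).

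**Figure D5:**
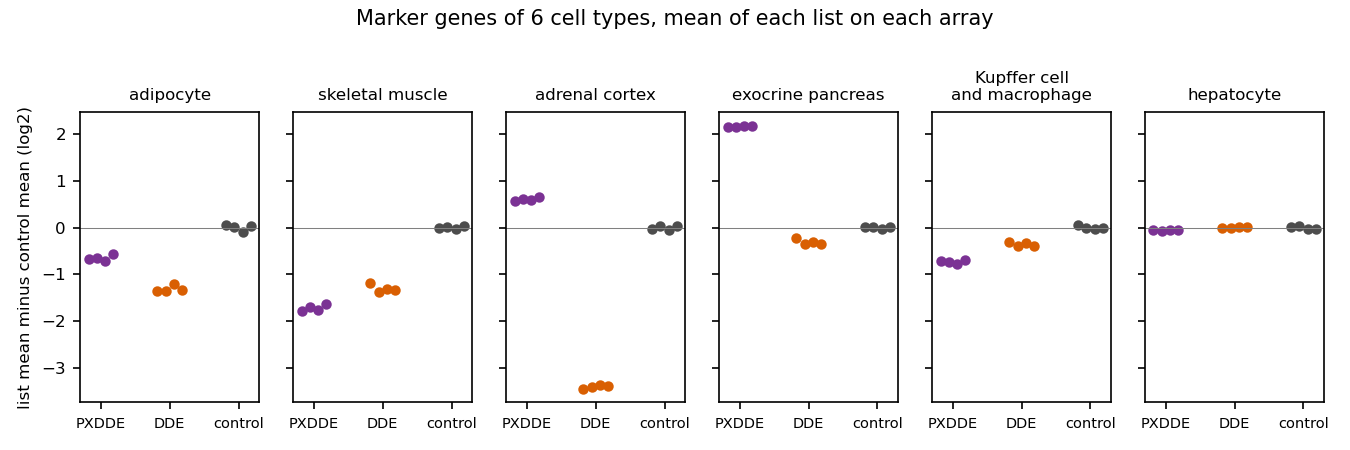
Mean level of the markers of 6 cell types on each array, minus the mean of the control arrays (log2, vertical axis), with PXDDE, DDE and control from left to right. The adipocyte mean is lowest in DDE, the macrophage mean is lowest in PXDDE, and the hepatocyte means, over the 9 markers with a value on all arrays, lie near 0 in all groups. Single hepatocyte markers went both ways, which a mean does not show.

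By Pearson correlation of levels over the arrays, the genes most like each of the 10 were listed, 3 for each. Because the arrays fall into 3 tight groups, such an r mostly reflects the order of the group means, and it is a description only. Plin4 was most like Ucp1, Cbr2 and Slc2a4 (r = 0.997, 0.994 and 0.994, 12 arrays), of which Ucp1 is an adipocyte marker and fell 3.96-fold in DDE against control (adjusted p = 6.27e-10, limma). G0s2 was most like Fcgr3, 1200007C13Rik and Clec7a (r = 0.997, 0.996 and 0.995), and Fcgr3 and Clec7a encode receptors of myeloid cells. Pnpla3 was most like Cdkn1c, Slco4a1 and Tceal3 (r = 0.992, 0.988 and 0.985). Cidec was most like Orm2, an acute-phase protein of the liver, with r = 0.987, and Plin2, over the 11 arrays with a value, most like the complement factor gene Cfb (r = 0.991). For Plin5, Cidea, Cideb, Pnpla2 and the cDNA probe of Lipe the nearest genes were Nus1, Zfp950, Aldh9a1, Steap4 and Gp49a (r = 0.982, 0.979, 0.990, 0.939 and 0.991).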

How the data were processed

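The scanner file of an array holds an intensity per spot (processed signal) that the authors deposited after spatial and multiplicative detrending, per the file headers. RMA, limma and Agilent Feature Extraction 11.5.1.1 are listed, without their roles, in the submitters' processing notes. The authors also deposited a table of log2 values of the same arrays; how it was made is not stated in those sources, and it served as an alternative.

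The signal was divided by the 75th percentile of each array's 59305 spots other than controls and taken to log2. Spots marked as outliers were left out. Of 56605 probes, 27098 passed the background test in every array of a group, and the brightest stood for its gene. A probe needed a value on at least 3 arrays of each group. Groups were compared with limma 3.58.1 (R 4.3.3, data.table, version 1.17.8) in 1 fit over 12 arrays (9 residual degrees of freedom) with Benjamini-Hochberg adjustment over 18677 genes, called under 0.05; second probes were tested in a fit over 27097 probes. The fit was tested on simulated data. The precision is limited by 4 arrays per group.

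The 10 genes, the 4 pathway lists and the 6 marker lists were chosen with earlier results of these data known. Named from a list are a fixed set of genes and called members among the 4 with the smallest p per comparison. Lists are described by counts and medians. Replicate numbers were checked for pairing: correlations of same-numbered arrays' deviations lay between -0.368 and 0.132, so the numbers were not used. For arrays of different groups on the same slide they lay between -0.114 and 0.347. The main fit had no slide term, and slide entered as a block in an alternative only. Alternatives were other scalings, background correction, filters, probe choices, eBayes options, blocks, and each array left out. Promoter and protein sequences were not used here.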

Additional observations from a re-analysis of the deposited data

How the results depend on the processing

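Of 28 alternatives, 1 was chosen after seeing the data (the brightest RefSeq mRNA probe). With that probe Lipe turned to 0.46, 0.49 and 0.95 in DDE against control, PXDDE against DDE and PXDDE against control. Median centring turned Cidea in DDE against control to 0.21 (adjusted p = 0.00545) and Cidec in PXDDE against control to 0.22, and gave members called higher, PXDDE against control, as 5 and members called lower, PXDDE against control, as 3. It put 81.3%, 66.3% and 73.1% of called genes higher in the 3 comparisons, against 47.7%, 40.6% and 44.5%, and quantile normalisation put 52.2% higher in PXDDE against DDE. Without a filter on dim probes 29.3%, 24.5% and 26.5% were higher. The genes called, PXDDE against DDE, were 14102 in place of 9319, and the genes called, PXDDE against control, 21802 in place of 13241. That setting tests 37073 genes, whose median log2 change was -0.19, -0.19 and -0.38 in the 3 comparisons. Median centring also called Plin5 higher in DDE against control (0.32), called Pnpla2 higher in PXDDE against control (0.40) and no longer called Plin5 (-0.07) or Cidea (-0.05) in PXDDE against control. The cause was not tested. With the replicate number as a block, 4159 genes were higher and 4623 lower in DDE against control, 3437 and 5162 in PXDDE against DDE, and 5750 and 7186 in PXDDE against control. Among the 10 genes the replicate block ended the call of Cidec in PXDDE against control (adjusted p = 0.0626), and 0 of 12 arrays correlated best with an array of its own number. Plin4, Cidea, Plin5, Cidec, Pnpla3 and G0s2 in PXDDE against DDE, Plin2, Plin4, Cideb, Cidec, Pnpla2, Pnpla3 and G0s2 in DDE against control, and Plin4, Cideb, Pnpla3 and G0s2 in PXDDE against control kept direction and call in all 28. Signal over background left out 1 Lipe probe, while those kept were well above it on 12 of 12 arrays.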
